A study of Mus musculus with 23 samples.

Results

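Cyp2c55 and Cyp2c65 are neighbouring mouse genes of the cytochrome P450 2C family. They were chosen by their measured levels on these liver arrays: a low level without phenobarbital, the level reached with it, and how both depended on genotype. Their levels and group differences are therefore given as a description, without a test. They make up 2 of the 18193 genes that had a probe set assigned to that gene alone, and each had 1 such probe set (1419582_at for Cyp2c55, Entrez Gene 72082, and 1429994_s_at for Cyp2c65, Entrez Gene 72303). The working description of the pair as off without an inducer was not settled by the arrays. In every control liver the Cyp2c65 probe set read under the low end of the array, which gives only an upper bound. The Cyp2c55 probe set read above the low end in every control liver, which alone does not show that its transcript was present.

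The study measured liver RNA of male C3H/He mice on Affymetrix 3' in vitro transcription arrays, 1 array for each of 23 samples. The groups were Ctnnb1 knockout with phenobarbital (n = 7), Ctnnb1 knockout without it (n = 7), wild type with phenobarbital (n = 4) and wild type without it (n = 5). Phenobarbital was given at 0.05% of the diet for 12 weeks, and the controls ate the diet without the drug, although other labels name water as their vehicle. In the knockout, Cre recombinase driven by the albumin promoter cut out the stretch of Ctnnb1 between loxP sites around exons 3 and 6, in mice backcrossed to C3H/N. The albumin promoter directs the deletion to hepatocytes. Whether other cells of the liver carry it was not tested. Age is not given in the labels. The labels number the replicates but do not say that each came from its own animal, so every p value refers to the spread between these samples, which may in part be technical.

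Cytochromes P450 of the 2C family are membrane-bound haem enzymes that oxidise drugs, steroids and fatty acids, and several mouse members turn arachidonic acid into epoxides or hydroxylated products. In mice Cyp2c55 and Cyp2c65 are known mainly from the gastrointestinal tract. Phenobarbital acts on hepatocytes through the constitutive androstane receptor (CAR, gene Nr1i3), a nuclear receptor that switches on Cyp2b10 and other drug-metabolising enzymes. Beta-catenin, encoded by Ctnnb1, carries the canonical Wnt signal into the nucleus and maintains the gene programme of the hepatocytes around the central vein, to which many P450 genes belong.

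Both genes lie on the plus strand of chromosome 19, where Cyp2c55 and then Cyp2c65 open the row of Cyp2c genes in the RefSeq annotation of GRCm38.p6. That annotation places 1 further entry between them, Gm3875, which has no probe set of its own on the array. The next gene after Cyp2c65 is Cyp2c66, which is not analysed here. The 250 bases before each annotated start are shown for these 3 genes, because they show how alike the upstream sequences of Cyp2c65 and Cyp2c66 are and how different that of Cyp2c55 is. They are upstream of the transcribed region and were taken from RefSeq on GRCm38.p6, plus strand, at chr19:39006769-39007018 for Cyp2c55, chr19:39060756-39061005 for Cyp2c65 and chr19:39113648-39113897 for Cyp2c66. Capitals mark matches to the motifs described next.
Cyp2c55: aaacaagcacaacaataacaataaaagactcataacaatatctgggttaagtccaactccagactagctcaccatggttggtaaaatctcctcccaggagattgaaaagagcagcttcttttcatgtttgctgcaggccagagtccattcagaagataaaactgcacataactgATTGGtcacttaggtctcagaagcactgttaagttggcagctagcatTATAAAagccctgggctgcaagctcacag
Cyp2c65: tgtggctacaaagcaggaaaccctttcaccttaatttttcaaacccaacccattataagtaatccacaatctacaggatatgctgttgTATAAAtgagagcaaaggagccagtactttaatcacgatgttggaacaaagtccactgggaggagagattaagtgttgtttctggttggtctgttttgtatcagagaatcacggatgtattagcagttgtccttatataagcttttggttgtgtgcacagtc
Cyp2c66: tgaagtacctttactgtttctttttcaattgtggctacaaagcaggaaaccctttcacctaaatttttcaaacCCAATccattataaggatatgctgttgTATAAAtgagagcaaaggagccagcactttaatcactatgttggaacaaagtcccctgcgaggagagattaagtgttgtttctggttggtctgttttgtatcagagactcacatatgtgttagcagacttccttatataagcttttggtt

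Aligned end to end, the windows of Cyp2c65 and Cyp2c66 had the same base at 208 of 221 aligned positions (94.1%). For Cyp2c55 and Cyp2c65 this was 155 of 216 (71.8%). Positions with gaps were left out. Against Cyp2b10, on chromosome 7, it was 146 of 189 (77.2%) for Cyp2c55 and 83 of 120 (69.2%) for Cyp2c65. A share of 71.8% alone thus does not show relatedness. The Cyp2c65 probe set carries the suffix that Affymetrix gives to probes able to match several transcripts. The array values cannot separate Cyp2c65 from a near-identical copy such as Cyp2c66, so every value given here for Cyp2c65 is uncertain in that respect. The windows were searched on both strands for 7 motifs, and the matches shown do not overlap each other. A TATA box (TATAAA) was found 29 to 24 bases before the start of Cyp2c55. In Cyp2c65 the same letters were found 162 to 157 bases before the start. The letters TATAAA occurred in 12.4% of 32851 promoter windows of the same length. Only these exact letters were searched. Nearer the start, the Cyp2c65 and Cyp2c66 windows hold tatataa, which was not a search motif. The matches thus do not show whether Cyp2c55 and Cyp2c65 differ in a TATA box. A CCAAT box (CCAAT, present in 33.8% of windows) was found in Cyp2c55 on the opposite strand, 76 to 72 bases before the start, and not in Cyp2c65. Neither gene's window held a nuclear receptor half-site (AGGTCA, in 14% of windows, or AGTTCA, in 11.8%), or a direct repeat of either half-site with any 4 bases between, the arrangement CAR is known to bind (0.0244% of windows). Nor did either hold the core of a TCF site, bound by the partners of beta-catenin (CTTTGA, 13.8%), or an HNF1 half-site (GTTAAT, 6.43%). That these letters are missing from the windows says nothing about the factors elsewhere at the genes.

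Values are log2 signals per probe set, as the authors deposited them, so equal ratios of signal are equal differences. The level of 1 probe set cannot be set against that of another. The signals have no detection calls, and the array's own 40th percentile, taken over all its probe sets, was used as the low end. It lay between 4.52 and 4.60 in the 23 arrays. Array medians were between 5.09 and 5.14, and no pair of arrays held identical values. Within a group the lowest correlation between arrays was 0.984 in knockout with phenobarbital, 0.973 in knockout controls, 0.996 in wild type with phenobarbital and 0.992 in wild-type controls. Knockout control replicates 2, 6 and 7 stood apart, with the lowest array weights estimated from all genes (0.540, 0.324 and 0.210). Several results that rest on them, though not all, are given with and without them. Ctnnb1 itself read 12.08 to 12.37 in knockout with phenobarbital and 12.11 to 12.42 in knockout controls, against 12.03 to 12.10 in wild type with phenobarbital and 12.18 to 12.23 in wild-type controls. Which part of the transcript its probes cover is not given in the sources used here, so this signal does not check the genotype labels. All 10 measured hepatocyte markers were above the low end in every group, with list means of 13.65 to 13.87 over the 23 arrays. The 30 measured genes of the beta-catenin-dependent perivenous programme averaged 7.22 to 7.53 per array in knockout with phenobarbital and 7.21 to 7.59 in knockout controls, against 9.39 to 9.53 in wild type with phenobarbital and 9.46 to 9.65 in wild-type controls.

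Cyp2c55 had a strong signal in every liver that had received phenobarbital, in both genotypes. Its log2 signals in the 7 knockout livers with phenobarbital were 12.74, 12.51, 12.70, 12.00, 12.76, 12.78 and 12.30 (mean 12.54 ± 0.29, SD), and in the 7 knockout controls 8.56, 8.11, 9.13, 9.10, 8.34, 9.73 and 6.83 (8.54 ± 0.93). In wild type, the 4 livers with phenobarbital had 12.88, 12.83, 12.94 and 12.82 (12.87 ± 0.053), and the 5 controls had 7.94, 8.30, 8.36, 8.98 and 8.08 (8.33 ± 0.40). Every phenobarbital array was above every control array, with a gap of 2.27 between the groups in knockout and 3.84 in wild type. The knockout controls were spread over 2.91 log2 units, and both the lowest of them, replicate 7, and the highest, replicate 6, are among the 3 arrays that stood apart.

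In the controls the Cyp2c55 probe set stood at percentiles 72.6 to 93.8 of its array in knockout and 83.5 to 90.8 in wild type. With phenobarbital it stood at percentiles 98.8 to 99.5 in knockout and 99.5 to 99.6 in wild type. The control signals were thus not at the low end of the array. Probe sets differ in background, and the brightest of 28 probe sets for genes of other tissues (Prm1, a sperm gene) averaged 8.26 in knockout controls and 8.31 in wild-type controls, so the percentile alone does not show that the Cyp2c55 transcript was present there.

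Cyp2c65 had no signal above the low end in any control liver, and its induced signal differed with genotype. Its log2 signals in the 7 knockout livers with phenobarbital were 8.03, 7.11, 8.03, 5.93, 6.51, 7.38 and 6.64 (mean 7.09 ± 0.79, SD), and the 7 knockout controls had 3.00, 2.93, 3.01, 3.33, 3.10, 3.18 and 3.11 (3.09 ± 0.13). In wild type, the 4 livers with phenobarbital had 10.17, 10.08, 10.16 and 9.98 (10.10 ± 0.088), and the 5 controls had 2.98, 3.24, 3.44, 3.37 and 3.31 (3.27 ± 0.17). Each phenobarbital array was above each control array in both genotypes, and each knockout array with phenobarbital was below each wild-type array with phenobarbital, by at least 1.95.

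The 7 knockout and 5 wild-type control arrays of Cyp2c65 all stood under the 40th percentile, at percentiles 9.07 to 16.3 in knockout and 9.51 to 17.5 in wild type, so these values give only an upper bound of its level and have no order among themselves. Its mean in knockout with phenobarbital was 2.54 above the 40th percentile. With phenobarbital it stood at percentiles 62.6 to 84.9 in knockout, against 94.7 to 95.4 in wild type. Knockout livers with phenobarbital covered a range of 2.10 log2 units for Cyp2c65 and of 0.78 for Cyp2c55. In wild type with phenobarbital the ranges were 0.19 and 0.12.

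**Figure D1:**
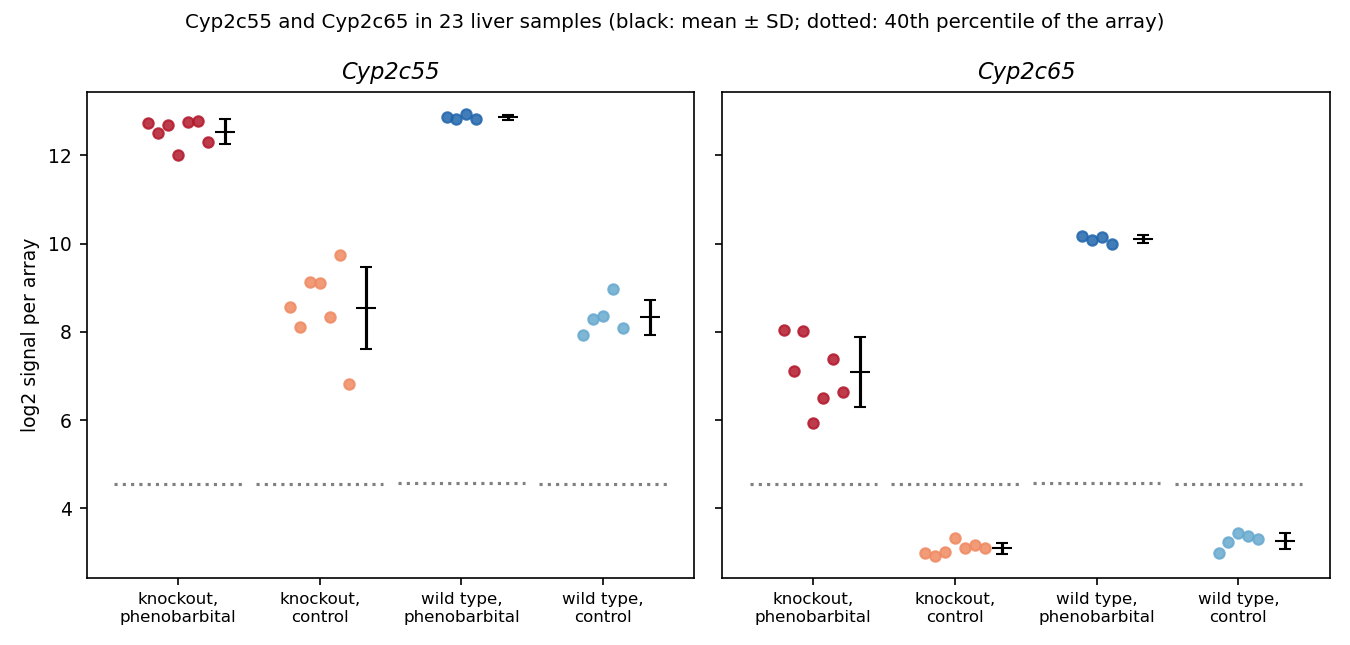
Log2 signal (y axis, shared by both panels) of Cyp2c55 and Cyp2c65 in each of the 23 liver samples, by group (x axis); each point is 1 array, black marks give the mean ± SD and the dotted line the mean 40th percentile of the group's arrays. Cyp2c55 lies between 12.00 and 12.94 in all phenobarbital arrays and between 6.83 and 9.73 in the controls, while Cyp2c65 lies under the dotted line in all controls and, with phenobarbital, between 5.93 and 8.03 in knockout and between 9.98 and 10.17 in wild type.

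Differences between groups are given with the SE of the model fitted to all 23 arrays. In knockout liver, Cyp2c55 was 3.999 higher on the log2 scale with phenobarbital than without it (SE 0.29), which is 16.0-fold in signal. In wild type it was 4.53 higher (SE 0.37), or 23.2-fold. Leaving out knockout control replicates 2, 6 and 7 gave 3.76 (SE 0.19) for the knockout difference of Cyp2c55. Over 34 alternative settings its difference was between 3.71 and 4.20 in knockout and between 4.44 and 4.70 in wild type.

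For Cyp2c65 the control level is a bound. Set against the 40th percentile of the control arrays, its signal with phenobarbital was at least 5.85-fold higher in knockout liver and at least 46.5-fold higher in wild-type liver. The measured log2 differences, taken from control signals under the low end, were 3.997 in knockout (SE 0.23) and 6.83 in wild type (SE 0.29). The higher signal with phenobarbital, without overlap of the arrays, was found for both genes in both genotypes, as it was for 0.636% of all 13826 genes tested in knockout and 6.04% in wild type. Since this pattern chose the genes, nothing is read from these counts.

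Between genotypes the genes differed from each other. In phenobarbital-fed livers Cyp2c55 averaged 12.54 in knockout and 12.87 in wild type, a log2 difference of -0.33. Its SE was 0.34 in the model over all arrays, 0.19 without knockout control replicates 2, 6 and 7, and 0.14 when only the compared groups were fitted, so whether the difference exceeds its SE depends on the arrays in the model. The highest knockout array was 0.039 below the lowest wild-type array. Cyp2c65 averaged 7.09 in knockout with phenobarbital and 10.10 in wild type with phenobarbital, a log2 difference of -3.01 (SE 0.27), or 8.04-fold lower in knockout. All knockout arrays were below all wild-type arrays for both genes, as for 7.38% of all genes tested.

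Without phenobarbital the genotypes overlapped for both genes. Cyp2c55 averaged 8.54 in knockout controls and 8.33 in wild-type controls (log2 difference 0.21, SE 0.32), and without replicates 2, 6 and 7 the difference was 0.45 (SE 0.20). Cyp2c65 was under the low end in both groups of controls, so no difference between them could be measured. For Cyp2c55 the phenobarbital difference in knockout minus that in wild type was -0.54 (SE 0.47). It was -0.77 (SE 0.27) without replicates 2, 6 and 7 and -0.79 (SE 0.29) with array weights. For Cyp2c65 the control level is a bound in both genotypes, so the genotypes are compared only under phenobarbital.

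Liver RNA was taken from whole tissue, in which fewer cells that make a transcript and less of it per cell cannot be told apart. Macrophage markers differed between genotypes and among the knockout arrays. Of 19 tested, 14 were higher in knockout than in wild type under phenobarbital and 16 without it, and 0 were lower in either (0 also at an unadjusted p under 0.05), against 11.9% and 14.8% of all genes tested that were higher. With phenobarbital 0 changed in either genotype (0 also unadjusted). The mean log2 signal of the 20 measured macrophage genes was 7.91, 7.19, 8.22, 8.90, 9.07, 7.47 and 8.95 in the 7 knockout livers with phenobarbital, and 8.76, 9.21, 7.28, 7.39, 7.36, 9.54 and 9.30 in the 7 knockout controls. It was 6.59 to 6.75 in wild type with phenobarbital and 6.58 to 7.15 in wild-type controls. Among the knockout controls, replicates 2, 6 and 7, which stood apart, had the highest macrophage means. In knockout with phenobarbital, replicates 4, 5 and 7 had both the highest macrophage values and the lowest Cyp2c65 values. The other knockout arrays with phenobarbital, 8.03, 7.11, 8.03 and 7.38, were also below all wild-type arrays with phenobarbital. Their macrophage means, 7.91, 7.19, 8.22 and 7.47, were above all of those wild-type arrays as well, so they are not matched to wild type in this respect. The part that other cells play in the Cyp2c65 values was not tested.

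Both P450s are best known from the intestine, so intestinal epithelial markers were checked in the same arrays. The mean over 26 measured markers was 5.18 to 5.32 in knockout with phenobarbital, 5.10 to 5.40 in knockout controls, 5.14 to 5.19 in wild type with phenobarbital and 5.13 to 5.33 in wild-type controls. Of the 26, 8 were at or under the low end in all 23 arrays (Cdx1, Krt20, Muc2, Cdh17, Slc26a3, Reg3g, Atoh1 and Clca1). These arrays include those in which Cyp2c55 and Cyp2c65 were high. The other markers were above the low end in at least 1 array. Of the 17 markers tested with limma, 0 rose with phenobarbital in either genotype. At an unadjusted p under 0.05, 1 rose in knockout and 0 in wild type. The trefoil factor Tff3 was the 1 that fell in wild type. It averaged 11.23 in knockout with phenobarbital, 11.75 in knockout controls, 6.79 in wild type with phenobarbital and 9.39 in wild-type controls. Under phenobarbital it was 4.44 higher in knockout (limma adjusted p = 9.71e-07). Of the 17 markers, 1 was higher and 1 lower in knockout under phenobarbital (median log2 difference -0.12), against 11.9% and 8.12% of all genes tested. Without phenobarbital 1 was higher and 3 were lower in knockout, against 14.8% and 10.1%. Over all genes tested, 1.17% rose and 0.882% fell with phenobarbital in knockout, and 1.95% rose and 1.9% fell in wild type. Of 7 tested markers of bile duct cells, 0 rose with phenobarbital in knockout (0 also at an unadjusted p under 0.05) and 1 rose in wild type, Prom1 (3.20, SE 0.38, adjusted p = 1.02e-05), while the duct keratin Krt7 was under the low end in all arrays. Whether these cells have a part in the Cyp2c signals was not tested.

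Within the 7 knockout livers with phenobarbital, the spread of the genes was set against that of other transcripts. The rule that chose the genes read their own values per array, and not those of the other transcripts. Cyp2c65 was set against Cyp2c55, Cyp2b10, Cyp2c37, Cyp2e1 and the macrophage mean. Among these it varied most closely with Cyp2c37, a hepatic P450 of the same family. The 3 livers with the highest Cyp2c65 signals, replicates 1, 3 and 6, also had the 3 highest Cyp2c37 signals (11.83, 12.30 and 12.09), and replicate 4 was lowest for both (11.08 for Cyp2c37). Pearson's r was 0.87 (exact permutation p = 0.0135, Benjamini-Hochberg adjusted p = 0.170 over 18 relations) and Spearman's rho 0.86 (exact permutation p = 0.0238, adjusted p = 0.429). Without replicates 3 and 6, the arrays farthest from the median of Cyp2c37, r was 0.94.

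Cyp2c55 had r = 0.85 with Cyp2b10 (exact permutation p = 0.0190, adjusted p = 0.170; rho 0.71, p = 0.0881, adjusted p = 0.600). That relation rested on replicates 4 and 7, the arrays lowest in both, since r was 0.22 without them. Its r with Cyp2c37 was 0.77 (exact permutation p = 0.0377, adjusted p = 0.170; rho 0.64, p = 0.139, adjusted p = 0.600), and 0.86 without replicates 3 and 6. Between Cyp2c65 and Cyp2c55 themselves, given as a description since both were chosen by these values, r was 0.72 and rho 0.46, and this too rested on replicates 4 and 7, with r = 0.083 without them.

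Cyp2c65 had r = -0.60 with the macrophage mean (exact permutation p = 0.164, adjusted p = 0.492; rho -0.57, p = 0.200, adjusted p = 0.600), and r was -0.71 without replicates 2 and 5. For Cyp2c55 and the macrophage mean r was -0.43 (exact permutation p = 0.350, adjusted p = 0.787; rho -0.18, p = 0.713, adjusted p = 0.840), and r was -0.89 without replicates 2 and 5. None of the 18 relations passed the adjustment. In the knockout controls Cyp2c65 had no order, and the macrophage mean and Cyp2b10 split the arrays into separate clusters, so no r is given for relations with these. Cyp2c55 there had r = -0.11 with Cyp2c37 (exact permutation p = 0.823, adjusted p = 0.823; rho -0.11, p = 0.840, adjusted p = 0.840), and r was -0.41 without replicates 1 and 2. Wild-type groups had too few arrays for such relations.

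**Figure D2:**
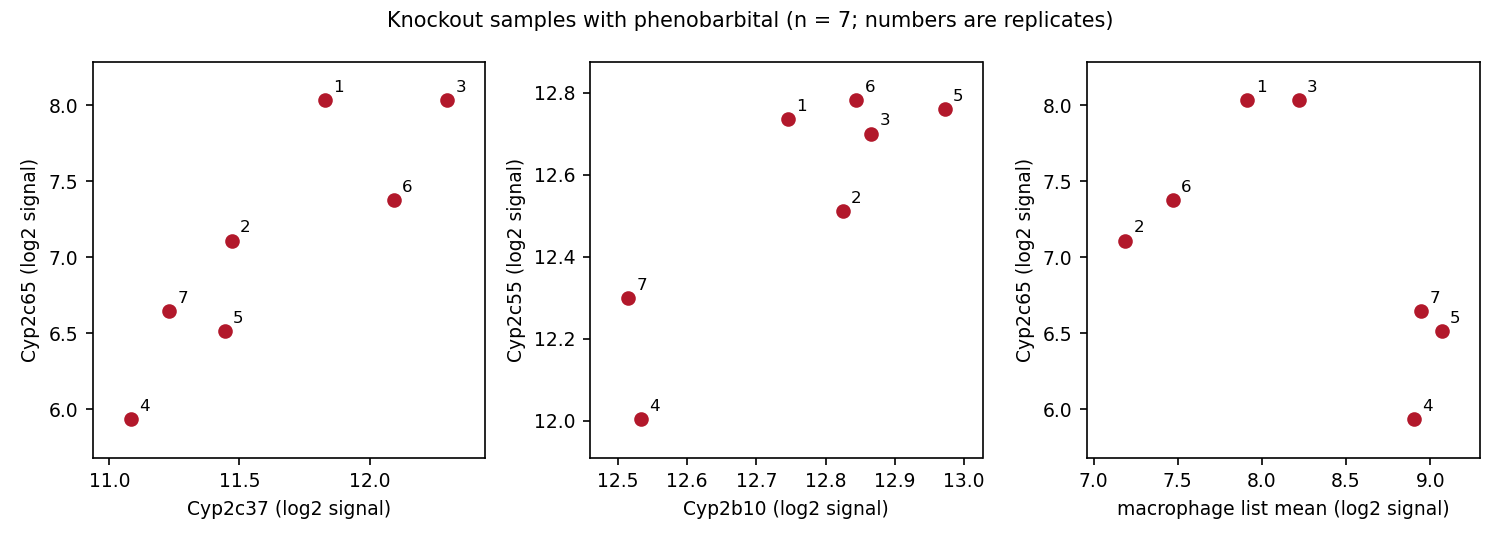
Log2 signals in the 7 knockout livers with phenobarbital, numbered by replicate: Cyp2c65 (y) against Cyp2c37 (x), Cyp2c55 (y) against Cyp2b10 (x), and Cyp2c65 (y) against the mean of 20 macrophage genes (x). Cyp2c65 and Cyp2c37 order the arrays alike (rho 0.86), replicates 4 and 7 lie apart at the low end for Cyp2c55 and Cyp2b10, and replicates 4, 5 and 7 combine high macrophage means (8.90, 9.07 and 8.95) with low Cyp2c65 (5.93, 6.51 and 6.64).

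The other Cyp2c genes were followed in the same arrays. The list held 13 further Cyp2c genes, of which 9 were measured and tested with limma over all 13826 genes. In 4 of the 9 every phenobarbital array was above every control array in both genotypes, as for Cyp2c55 and Cyp2c65. These were Cyp2c29, Cyp2c37, Cyp2c50 and Cyp2c54. Not all of their differences passed the test. With each genotype taken alone, such a rise without overlap was found for 0.636% of all genes tested in knockout and 6.04% in wild type. With phenobarbital, 4 rose and 1 fell in knockout (median log2 difference 0.36, against 0.0056 over all genes tested), and 1 rose and 0 fell in wild type (median 0.075, against 0.0079 over all genes; 2 higher and 2 lower at an unadjusted p under 0.05). Over all genes tested, 1.17% rose and 0.882% fell in knockout, and 1.95% rose and 1.9% fell in wild type. With only the compared groups fitted, 3 rose and 0 fell in knockout and 4 rose and 1 fell in wild type. Without knockout control replicates 2, 6 and 7, 5 rose and 2 fell in knockout and 4 rose and 1 fell in wild type. These arrays also enter the spread estimate of the wild-type test. Over all genes, 785 were called without them in knockout (284 with them) and 812 in wild type (532 with them).

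Cyp2c37 was the one tested family member called higher in both genotypes in the model over all 23 arrays. Its signals were 11.83, 11.47, 12.30, 11.08, 11.44, 12.09 and 11.23 in the 7 knockout livers with phenobarbital, against 8.39, 5.66, 6.80, 7.50, 7.58, 6.00 and 7.02 in the knockout controls. In wild type they were 13.19, 13.34, 13.37 and 13.25 with phenobarbital, against 10.45, 11.19, 11.03, 11.65 and 10.63 in the controls. The phenobarbital difference was 4.64 in knockout (SE 0.32, limma adjusted p = 4.39e-09) and 2.30 in wild type (SE 0.40, adjusted p = 0.00112), and that in knockout was 4.07 without knockout control replicates 2, 6 and 7. The phenobarbital difference in knockout minus that in wild type was 2.34 for Cyp2c37 (SE 0.51, adjusted p = 0.0236, range over 33 alternatives 0.00388 to 0.0748). This call for Cyp2c37 ended with the replicate number as a block (adjusted p = 0.0748) and without wild-type phenobarbital replicate 1, 3 or 4 or wild-type control replicate 2 (adjusted p = 0.0513 to 0.0611).

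Cyp2c50 and Cyp2c54 rose with phenobarbital in knockout, by 2.997 (SE 0.43, adjusted p = 0.000451) and 3.24 (SE 0.55, adjusted p = 0.00226). In wild type their differences were 1.02 and 1.95 (adjusted p = 0.385 and 0.133). Fitted on the wild-type groups alone, both of these passed the threshold (limma adjusted p = 2.35e-05 and 2.53e-05). In the knockout controls replicates 2, 6 and 7 were the lowest for both genes, at 9.06, 8.26 and 10.15 for Cyp2c50 and 7.81, 6.91 and 9.06 for Cyp2c54. With these arrays left out, the knockout differences were 1.89 and 1.87 (adjusted p = 1.11e-08 and 0.000161) and both wild-type differences passed the threshold (adjusted p = 4.91e-05 and 7.54e-05). Cyp2c70, the enzyme that makes muricholic bile acids in mice, rose by 0.36 in knockout (SE 0.070, adjusted p = 0.00775) and its group means were 13.44 to 13.80. Cyp2c68 fell by 1.86 in knockout (SE 0.43, adjusted p = 0.0246), a call that ended in 7 of 34 alternatives (adjusted p 0.0501 to 0.119). Without knockout control replicates 2, 6 and 7 the Cyp2c68 difference was -2.80 in knockout (adjusted p = 5.35e-05) and that in wild type, -1.34, passed the threshold (adjusted p = 0.0287). Cyp2c29, the hepatic P450 next to Cyp2c66 on the chromosome, differed by 1.45 in knockout (adjusted p = 0.0660) and by 0.36 in wild type (adjusted p = 0.839). Without knockout control replicates 2, 6 and 7, which read 11.30, 10.05 and 11.75 for Cyp2c29, the knockout difference was 0.37 (adjusted p = 0.0038) and the wild-type difference of 0.36 passed as well (adjusted p = 0.00631).

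Without phenobarbital 7 of the 9 family genes were lower in knockout than in wild type and 0 were higher (0 also at an unadjusted p under 0.05), with a median log2 difference of -1.90, against 10.1% lower and 14.8% higher over all genes tested. The count of lower genes was 5 without knockout control replicates 2, 6 and 7, which also had the highest macrophage means, 5 when only the compared groups were fitted and 4 with the replicate number as a block. Cyp2c55, by contrast, averaged 0.21 more in knockout controls than in wild-type controls (SE 0.32), and Cyp2c65 could not be compared there. With phenobarbital 2 of the 9, Cyp2c37 and Cyp2c68, were lower in knockout (-1.65, SE 0.37, adjusted p = 0.00343, and -2.42, SE 0.51, adjusted p = 0.00202), against 8.12% of all genes tested, beside the -3.01 of Cyp2c65. Under phenobarbital 6 of the 9 were lower when only the compared groups were fitted, and 4 without knockout control replicates 2, 6 and 7.

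**Figure D3:**
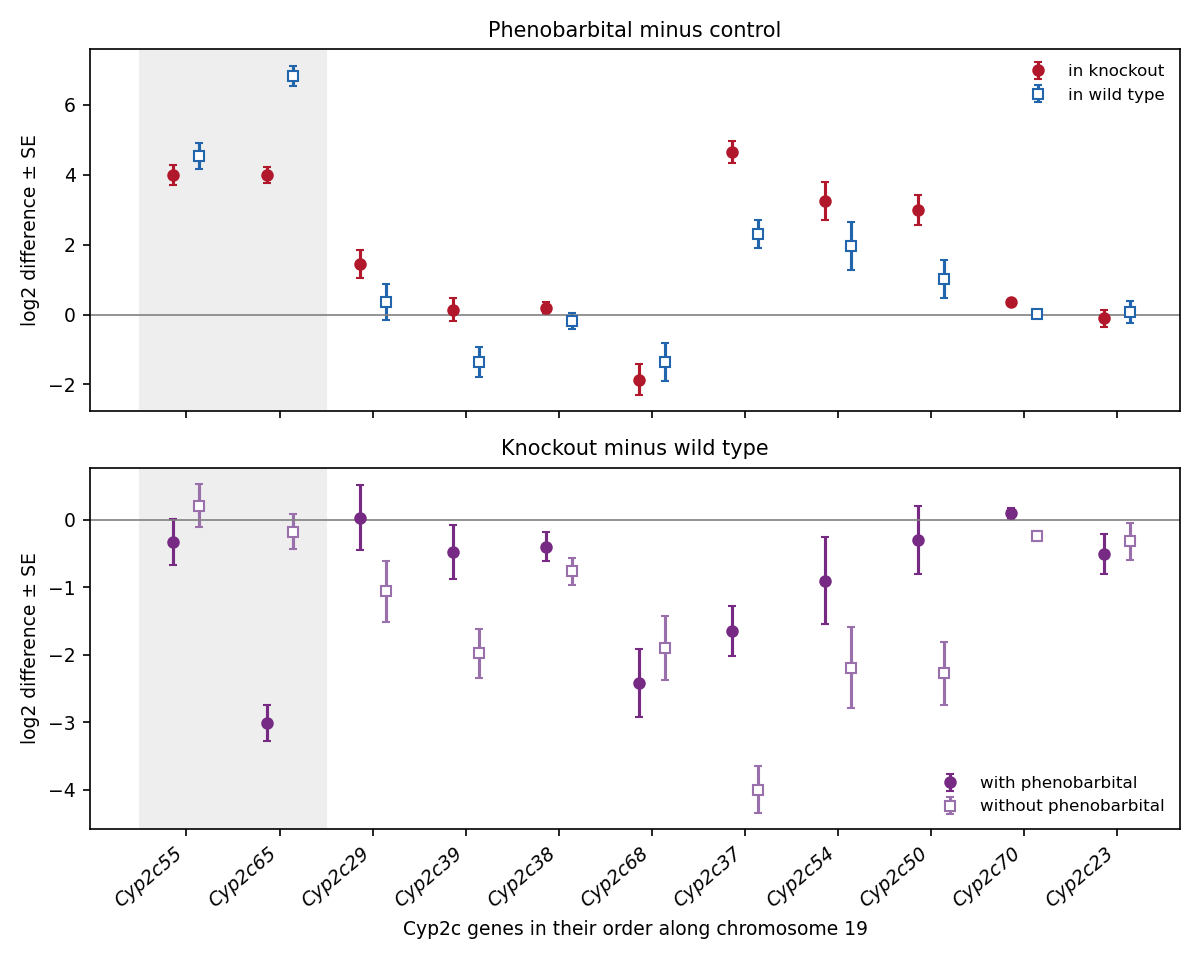
Log2 differences ± SE of Cyp2c55 and Cyp2c65 (shaded) and of 9 other Cyp2c genes, in their order along chromosome 19: phenobarbital minus control in knockout and in wild type (upper panel), and knockout minus wild type with and without phenobarbital (lower panel). The control signals of Cyp2c65 are under the low end, so its phenobarbital differences are measured from a bound. It combines the highest wild-type phenobarbital difference of the panel (6.83) with the lowest knockout difference under phenobarbital (-3.01), while Cyp2c37 has its larger phenobarbital difference in knockout (4.64 against 2.30 in wild type).

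The genes on either side of the cluster were counted as well. Of the 10 nearest tested genes outside the Cyp2c row, 5 before Cyp2c55 and 5 after Cyp2c70 in the GRCm38.p6 gene order, 0 rose and 0 fell with phenobarbital in knockout (2 at an unadjusted p under 0.05), with log2 differences from -0.26 to 0.29, where 1.17% of all genes tested rose. In wild type 0 rose and 1 fell, the phospholipase gene Plce1 (-0.46, SE 0.12, adjusted p = 0.0297), and the range was -0.46 to 0.44, where 1.95% of all genes tested rose. A count of 0 among 10 genes is what these shares give, so nothing is read from it.

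The receptor pathway gives further reference points for the pair. Nr1i3, which encodes CAR, averaged 6.42 ± 0.25 in knockout with phenobarbital (SD, n = 7) and 7.19 ± 0.79 in knockout controls (n = 7), 8.66 ± 0.10 in wild type with phenobarbital (n = 4) and 8.73 ± 0.13 in wild-type controls (n = 5). Under phenobarbital it was lower in knockout (log2 difference -2.24, SE 0.28, limma adjusted p = 7.19e-06), beside -3.01 for Cyp2c65 and -0.33 for Cyp2c55. Without phenobarbital Nr1i3 was also lower in knockout (-1.54, adjusted p = 0.000242). Its phenobarbital difference in knockout was -0.76 (limma adjusted p = 0.101), and -1.35 without knockout control replicates 2, 6 and 7 (adjusted p = 3.92e-06). That difference minus the wild-type one was -0.70 with all arrays (adjusted p = 0.576) and -1.29 without the same replicates (adjusted p = 0.00117). Whether the Nr1i3 level bears on the Cyp2c65 values was not tested.

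Cyp2b10, the classical CAR target, averaged 12.76 ± 0.17 in knockout with phenobarbital and 9.75 ± 0.98 in knockout controls (SD, n = 7 each), against 12.64 ± 0.048 in wild type with phenobarbital (n = 4) and 5.68 ± 0.39 in wild-type controls (n = 5). It rose with phenobarbital by 3.01 in knockout (SE 0.29, adjusted p = 2.19e-06) and by 6.96 in wild type (SE 0.37, adjusted p = 1.75e-11). Its smaller difference in knockout (-3.95, SE 0.47, adjusted p = 4e-05) came with a higher control level, 4.06 above wild-type controls (adjusted p = 1.14e-08), and with no called difference under phenobarbital (0.11, SE 0.35, adjusted p = 0.842). For Cyp2c65 the control signals were under the low end in both genotypes and the signal with phenobarbital was lower in knockout.

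Over all genes tested, 1.17% rose with phenobarbital in knockout and 1.95% in wild type. Of 32 tested CAR targets, Cyp2b10 among them, 14 rose and 0 fell in knockout (0 lower at an unadjusted p under 0.05). In wild type 18 of these targets rose and 0 fell (0 lower unadjusted). Without knockout control replicates 2, 6 and 7, 18 rose in knockout and 21 in wild type, and 0 fell in either. With all arrays the median log2 differences of the 32 targets were 0.45 in knockout and 0.84 in wild type. For 7 of these targets the phenobarbital difference was smaller in knockout than in wild type and for 0 it was larger (1 at an unadjusted p under 0.05), against 0.521% and 0.354% of all genes tested, and leaving out single arrays gave 3 to 9. The 3 followed from leaving out any 1 of knockout phenobarbital replicate 6, wild-type phenobarbital replicates 1, 2 and 3 and wild-type control replicate 2. Among the 7 were the oestrogen sulphotransferase Sult1e1 (-3.86, adjusted p = 3.19e-06) and Cyp2b10. Sult1e1 was at or under the low end in 5 of 5 wild-type controls and 6 of 7 knockout controls. The same held for 6 of 7 knockout arrays with phenobarbital, so the size of its difference rests on signals near background. Under phenobarbital 14 of the 32 were lower in knockout and 2 were higher, against 8.12% and 11.9% of all genes tested.

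Cyp2c55 and Cyp2c65 need haem and electrons to work, and genes of that supply were counted too. Of 14 tested, 2 rose and 0 fell with phenobarbital in knockout (2 lower at an unadjusted p under 0.05), and 3 rose and 0 fell in wild type (0 lower unadjusted), against the same shares of 1.17% and 1.95%. One of those in knockout, Pgrmc1, a haem-binding membrane protein, differed by 0.15 (adjusted p = 0.0482) and lost its call in 27 of 34 alternatives (adjusted p over all of them 0.03 to 0.189). Alas1, the first enzyme of haem synthesis, rose by 3.24 in wild type (SE 0.65, adjusted p = 0.00466), and cytochrome b5 (Cyb5a) rose by 0.23 in knockout (adjusted p = 0.00453) and by 0.26 in wild type (adjusted p = 0.00694). Of 22 tested genes of arachidonic acid oxidation, the chemistry for which Cyp2c55 and Cyp2c65 are known, 1 rose and 1 fell with phenobarbital in knockout and 2 rose and 0 fell in wild type (0 lower unadjusted). Over all genes tested 1.17% rose and 0.882% fell in knockout and 1.95% rose in wild type, and counts of 1 or 2 among 22 genes are close to these shares. The P450 gene Cyp2j9 was the one that fell (-0.58, adjusted p = 0.0244), a call that ended in 6 of 34 alternatives (adjusted p over all of them 3.17e-05 to 0.12). The microsomal epoxide hydrolase Ephx1 rose in both genotypes, by 0.84 in knockout (adjusted p = 0.000633) and by 0.94 in wild type (adjusted p = 0.000686). Of 25 nuclear receptors and partners, 1, the aryl hydrocarbon receptor gene Ahr, rose in both genotypes (0.56 in knockout, adjusted p = 0.0176, and 0.69 in wild type, adjusted p = 0.0103) and 0 fell (2 and 4 lower at an unadjusted p under 0.05), against 1.17% and 1.95% of all genes tested that rose.

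The transcripts most like each gene were found by Pearson's r over the 23 arrays. These points fall into 4 groups, so r mostly reflects the group means, and it is given as a description. Nebl, which encodes a nebulin-related actin-binding protein, was in place 1 for Cyp2c55 (r = 0.936) and place 3 for Cyp2c65 (r = 0.930). Cyp2c55 and Cyp2c65 had r = 0.916 with each other. The places leave out genes with placeholder names, and on that count Cyp2c65 was in place 2 for Cyp2c55, and Cyp2c55 in place 4 for Cyp2c65. Among all genes tested these were places 3 and 6. The carboxylesterase Ces2a was in place 1 for Cyp2c65 (r = 0.934) and place 3 for Cyp2c55 (r = 0.907).

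For Cyp2c55 the list went on with Entpd5 (0.887), Rarres1 (0.880) and Ces1g (0.870). For Cyp2c65 it held Cpe (0.934), Stbd1 (0.914) and the glucuronosyltransferase Ugt2b34 (0.897). These 8 other transcripts were picked for a pattern over the groups like that of Cyp2c55 or Cyp2c65, so their phenobarbital differences follow from the choice and are given without a test. The log2 differences were 0.44 to 2.37 in knockout and 0.35 to 5.20 in wild type, with Nebl the largest in each. Nebl averaged 8.11 in knockout with phenobarbital and 5.74 in knockout controls, against 9.47 in wild type with phenobarbital and 4.26 in wild-type controls. In 4 of its 5 wild-type control arrays it was at or under the low end, so its differences from that group are measured from signals near background. For Cpe, at or under the low end in 5 of 7 knockout controls, the mean of its probe sets gave -0.082 for phenobarbital in knockout, where the brightest probe set gave 0.91.

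**Figure D4:**
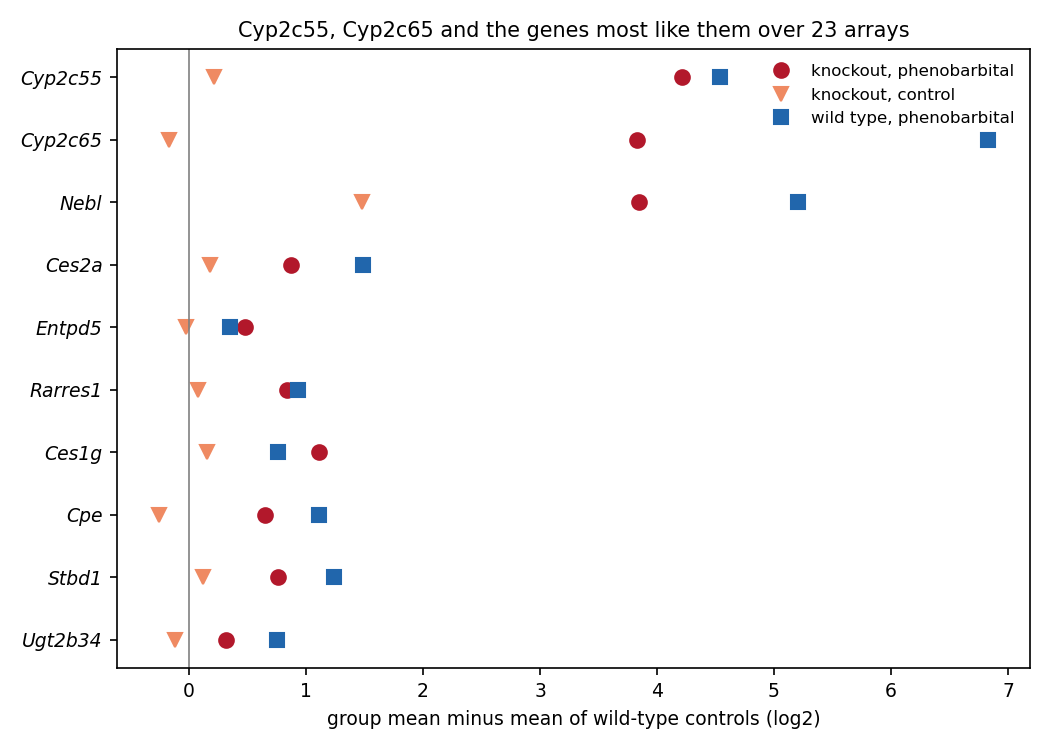
Group means of Cyp2c55, Cyp2c65 and the 8 named transcripts most like them over 23 arrays, each as the log2 difference from its own mean in wild-type controls (the vertical line at 0), for knockout with phenobarbital, knockout controls and wild type with phenobarbital. Wild type with phenobarbital lies furthest to the right for Cyp2c65 (6.83) and Nebl (5.20), both measured from wild-type controls at or near the low end of the array, and knockout controls lie 1.47 right of the line for Nebl.

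With the group means subtracted, the 2 genes were no longer close to each other: r was 0.278 over 23 arrays, place 3128 for Cyp2c65 among all genes tested in likeness to Cyp2c55, and 0.494 without knockout control replicates 2, 6 and 7. The transcripts most like Cyp2c55 on that measure were Cebpzos (0.850), Zfp444 (0.849), Poc1a (0.835), Gclm (0.813), Rtf2 (0.771) and Hp1bp3 (0.753). They were at 0.387 to 0.575 without the 3 arrays that stood apart. For Cyp2c65 they were Tspan1 (0.765), C1ql1 (0.747), Trpc4 (0.746), Gpr4 (0.745), Colq (0.739) and Ap5b1 (0.731), and 0.814 to 0.876 without the 3 arrays. In the controls Cyp2c65 is under the low end, so its residuals there carry little information. Its SD was 0.79 in the 7 knockout arrays with phenobarbital and 0.088 to 0.17 in the other groups. Leaving out the 3 control arrays is thus a weak check of its list. Tspan1 was at or under the low end in 5 of 7 arrays in each knockout group. In wild type this held in 3 of 4 arrays with phenobarbital and 4 of 5 controls. Trpc4 was there in 4 of 7 knockout arrays with phenobarbital. The 6 transcripts of one gene and the 6 of the other had none in common.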

How the data were processed

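Liver RNA of 23 samples in 4 groups was hybridised to Affymetrix arrays. The table deposited by the authors holds log2 signals, made with RMA in the R package affy per the submitters' processing notes. Tool versions and the set of arrays processed jointly are not given in the sources used here. The values were used as deposited. Of 45037 probe sets, 34945 have exactly 1 gene, 932 several and 9160 none. Symbols were updated through Entrez identifiers for 34741 and kept for 204. Each of 18193 genes was represented by its brightest such probe set, and 13826 above the 40th percentile of the array in at least 4 arrays were tested.

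A linear model with a mean for each group used all 23 arrays (limma 3.58.1, R 4.3.3, tested on simulated data), with two-sided moderated tests and Benjamini-Hochberg adjustment over all genes tested. A gene was called at an adjusted p under 0.05. Relations within a group used exact two-sided permutation of all 5040 pairings. Promoter windows were aligned with Biopython 1.88 (Python 3.11.15). The number of arrays limits the precision.

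Named genes were both Cyp2c genes of interest, the measured Cyp2c family, Cyp2b10 and Nr1i3. They also included up to 4 genes per other list with the largest change among those called for phenobarbital or its interaction with genotype. The 6 genes most like each gene, over all arrays and after subtraction of group means, completed them, without placeholder names. Plce1 was named after its values were seen. The genes, the lists and the rule were chosen with earlier results of these data known. Same-numbered replicates deviated together in only 5 of 20 pairs (r over 0.1, range -0.70 to 0.63), so the numbers do not pair the samples.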

Additional observations from a re-analysis of the deposited data

Results flagged for a closer look

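Of 48 sets of 1 gene in 1 group (Cyp2c55, Cyp2c65, the other Cyp2c genes and Cyp2b10) that were checked for a single distant array, 1 had such an array: Cyp2c70 in wild type with phenobarbital, where replicate 2, at 13.63, lay apart below the other three. How often chance alone sets a single array apart was not tested, so nothing is read from this array. The phenobarbital difference of Cyp2c37 was larger in knockout than in wild type, by 2.34 (limma adjusted p = 0.0236). That of Cyp2b10 was smaller in knockout than in wild type (difference -3.95, limma adjusted p = 4e-05), and its level in knockout controls was 4.06 above that in wild-type controls.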

How the results depend on the processing

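The log2 differences of Cyp2c55, and those of Cyp2c65 that involve phenobarbital, kept their sign in every alternative run. Between the controls Cyp2c65 was under the low end, so its sign there has no meaning. Knockout phenobarbital replicates 4, 5 and 7, left out together by a choice made after seeing the data, are the 3 lowest for Cyp2c65, so their removal had to shrink its difference between genotypes and bears on no cause. The measured values of Cyp2c65 were then 4.54 for phenobarbital in knockout, -2.46 for knockout against wild type under phenobarbital and -2.29 for the interaction. Leaving out 1 array at a time, the 5 differences of Cyp2c55 were 3.71 to 4.20 for phenobarbital in knockout, 4.44 to 4.70 for phenobarbital in wild type, -0.37 to -0.24 for knockout against wild type under phenobarbital, 0.012 to 0.50 for knockout against wild type controls and -0.82 to -0.34 for the interaction. For Cyp2c65 these were 3.84 to 4.19, 6.76 to 6.87, -3.16 to -2.81, -0.24 to -0.13 and -2.99 to -2.64.

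Genes called depended on the setting, and the cause was not tested. With array weights 461 were called for phenobarbital in knockout (main count 284), 1503 for phenobarbital in wild type (532), 4574 for knockout against wild type under phenobarbital (2772) and 323 for the interaction (121). With only the compared groups, 100 and 942 were called for phenobarbital in knockout and in wild type, and 2081 for knockout against wild type controls (main count 3453). With the replicate number as a block, 1606 were called for knockout against wild type under phenobarbital and 1967 without it. Without knockout control replicates 2, 6 and 7, 785 and 812 were called for phenobarbital in knockout and in wild type, 1532 for knockout against wild type controls and 274 for the interaction. Without knockout phenobarbital replicates 4, 5 and 7, 1272 were called under phenobarbital between genotypes. Leaving out 1 array gave 157 (without knockout phenobarbital replicate 1) to 409 (without knockout control replicate 7) for phenobarbital in knockout, and 308 (without wild-type phenobarbital replicate 3; 347 without replicate 1) to 665 in wild type. It gave 1794 to 3286 for genotype under phenobarbital (1842 without wild-type phenobarbital replicate 4), 2668 to 3902 without phenobarbital and 61 to 146 for the interaction (74 and 77 without wild-type phenobarbital replicates 1 and 4).

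Levels of different probe sets cannot be compared, so the next values describe only where another low end would lie. Against the median or the highest of 28 genes of other tissues (the highest, Prm1, averaged 8.26 to 8.39 by group; the background of single probe sets is unknown), the mean of Cyp2c55 was 8.42 or 4.15 above it in knockout with phenobarbital, 0.28 above the highest in knockout controls, 8.70 or 4.56 above in wild type with phenobarbital and 4.19 or 0.022 in wild-type controls. For Cyp2c65 the values were -1.30 against the highest in knockout with phenobarbital, where the sign turned with the choice of probe set, -0.98 and -5.17 in knockout controls, 5.93 and 1.79 in wild type with phenobarbital, and -0.87 and -5.04 in wild-type controls. Cpe in knockout turned sign with the mean of probe sets (-0.082).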
